A study of Homo sapiens with 6 samples.

Results

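The 8 regulators of early kidney development, PAX2, PAX8, LHX1, WT1, EMX2, SIX2, EYA1 and GATA3, were followed across 6 clonal lines of HEK293, an established human embryonic kidney cell line. They are the 8 genes, of 58395 measured, that carry these symbols in the deposited expression table, and no cutoff on their values was used. Of the 8, 7 passed the filter on low counts and were among the 17261 genes tested. The 3 GST lines (lines 2, 8 and 9) overexpressed glutathione S-transferase with the 3F tag, and the 3 NOCT lines (lines 4, 11 and 12) overexpressed nocturnin with that tag and without residues 2 to 15, written NOCT ∆(2-15)-3F. Each line is a separate clone on the same HEK293 background, so a p-value here sets the difference between groups against the spread between clones. The tissue of origin of HEK293 and the state of any one clone cannot be told apart in these data, and in bulk RNA neither can fewer cells that express a gene and less RNA per cell.

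The kidney forms from intermediate mesoderm. In the embryo the paired-domain factors PAX2 and PAX8 and the LIM-homeodomain factor LHX1 act early in the nephric duct, where the zinc-finger factor GATA3 and the homeodomain factor EMX2 support outgrowth of the ureteric bud. EYA1, a coactivator and phosphatase that binds SIX2, SIX2 itself and the zinc-finger factor WT1 act in the mesenchyme around the bud, from which nephrons arise; SIX2 holds nephron progenitors in an undifferentiated state.

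Promoter sequences are shown for PAX2 and SIX2, whose highest NOCT line lay below the lowest GST line, for PAX8, which was almost without reads, and for EMX2, which was kept at a similar level in all lines and is overlapped by an antisense RNA. Each runs from 250 bases before to 50 bases after a RefSeq transcript start in GRCh38.p14, 5′ to 3′ on the gene's own strand, and capitals mark matches on either strand to the GC box GGGCGG, the GATA motif AGATAA, the homeodomain core TAATTA, the WT1 and EGR motif GCGTGGG or the TATA box TATAAA. The intervals are chr10:100735146-100735445 (plus strand) for PAX2, whose other listed start is not shown, chr2:113278872-113279171 (minus strand) for PAX8, chr2:45009403-45009702 (minus strand) for SIX2 and chr10:117542496-117542795 (plus strand) for EMX2.
PAX2: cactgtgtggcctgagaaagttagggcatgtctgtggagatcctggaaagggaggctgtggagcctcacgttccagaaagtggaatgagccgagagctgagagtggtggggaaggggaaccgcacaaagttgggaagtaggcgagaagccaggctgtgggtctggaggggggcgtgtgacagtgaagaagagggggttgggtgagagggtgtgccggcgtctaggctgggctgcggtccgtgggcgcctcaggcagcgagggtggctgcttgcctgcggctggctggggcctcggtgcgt
PAX8: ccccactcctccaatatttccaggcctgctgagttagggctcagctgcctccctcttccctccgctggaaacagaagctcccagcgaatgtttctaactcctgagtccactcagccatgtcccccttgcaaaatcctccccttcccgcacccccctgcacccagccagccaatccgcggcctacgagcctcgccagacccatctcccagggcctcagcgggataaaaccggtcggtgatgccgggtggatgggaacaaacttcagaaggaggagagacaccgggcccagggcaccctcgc
SIX2: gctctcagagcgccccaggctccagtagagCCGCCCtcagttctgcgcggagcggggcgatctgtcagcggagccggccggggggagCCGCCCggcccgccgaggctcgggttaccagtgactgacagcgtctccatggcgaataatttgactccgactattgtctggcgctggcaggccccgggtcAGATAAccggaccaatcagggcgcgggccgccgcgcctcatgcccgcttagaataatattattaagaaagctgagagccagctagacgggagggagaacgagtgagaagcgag
EMX2: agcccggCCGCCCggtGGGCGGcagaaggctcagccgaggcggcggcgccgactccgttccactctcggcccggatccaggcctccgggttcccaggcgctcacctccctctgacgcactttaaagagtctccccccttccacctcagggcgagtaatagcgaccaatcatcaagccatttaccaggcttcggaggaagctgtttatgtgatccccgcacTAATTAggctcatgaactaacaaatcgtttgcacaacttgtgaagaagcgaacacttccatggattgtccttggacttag

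None of the 5 motifs was found in the PAX2 and PAX8 windows. The SIX2 window held 2 GC boxes and 1 GATA motif, and the EMX2 window 2 GC boxes and 1 homeodomain core; no matches overlapped. Over all 35116 promoters of this length, 45.0% held a GC box, 10.3% the GATA motif, 4.84% the homeodomain core, 6.98% the WT1 and EGR motif and 11.5% the TATA box. The windows differed in CpG dinucleotides: 29 in SIX2, 21 in EMX2, 14 in PAX2 and 13 in PAX8, beside a median of 14 over all promoters. Thus the PAX8 window, of the gene almost without reads, and the PAX2 window both lay near that median. A match says only that these letters are present.

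Depth and labels were checked on the whole libraries. The libraries held 19729745 to 24422406 gene counts. The GST construct had 46 to 88 counts in GST lines and 0 or 1 in NOCT lines, and the NOCT construct 46 to 82 in NOCT lines and 3 to 7 in GST lines. NOCT line 12 stood apart in the comparison: edgeR called 970 of 17882 genes without it and 10 of 17261 with it. The regulators and kidney list genes that passed only without it are therefore also given without it. With any other single line left out, no regulator or kidney list gene passed in edgeR.

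Of the 8 regulators, 6 were kept at 1 TPM or more in each of the 6 lines. TPM is a level corrected for library depth and for the merged length of all annotated exons of a gene. That length was 9418 bases for EYA1, 6243 for PAX2 and 2205 for SIX2. The order of genes by TPM, the family shares and the side of 1 TPM on which a gene falls depend on it. Over all genes 25.9% reached 1 TPM in every line, and of protein-coding genes 58.2%. GATA3 stood highest, at a mean of 19.6 TPM over the 6 lines, above 73.1% of protein-coding genes. LHX1 (7.91 TPM), EMX2 (7.38), EYA1 (6.45) and SIX2 (4.41) followed, then WT1 (3.07) and PAX2 (1.31), with PAX8 last at 0.00915. GATA3 was above the next regulator in 6 of 6 lines with no overlap of ranges. The levels of LHX1, EMX2 and EYA1 interleaved: LHX1 exceeded EMX2 in 3 lines, EMX2 exceeded EYA1 in 4 and EYA1 exceeded SIX2 in 3. SIX2 was above WT1 in 5 lines, and WT1 above PAX2 in 6. The order also differed between the groups, since SIX2 stood at rank 3 in the GST lines and rank 5 in the NOCT lines, while EYA1 went from rank 5 to rank 3 and LHX1 from rank 4 to rank 2.

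**Figure D1:**
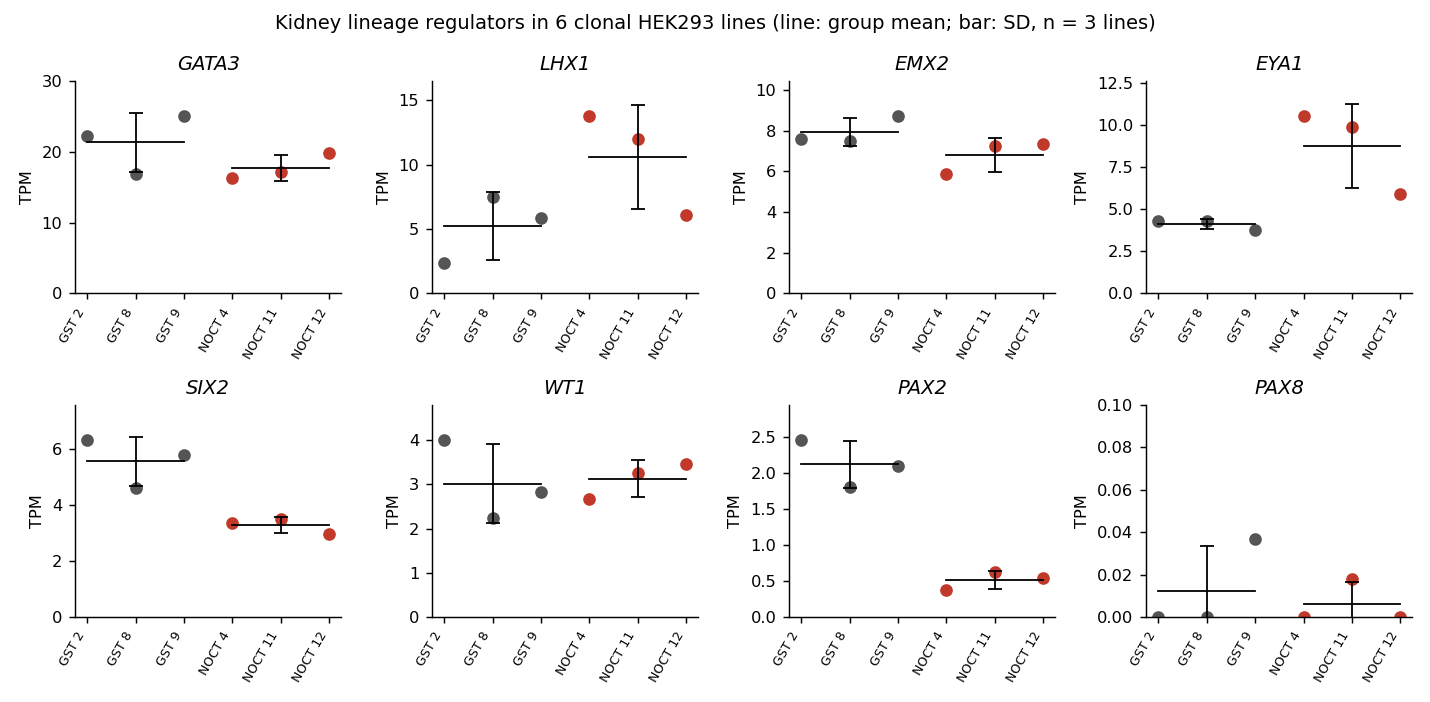
TPM of the 8 regulators in each of the 6 lines (points; grey GST, red NOCT), with the group mean as a line and the SD over 3 lines as a bar; each panel has its own axis from 0. PAX2 sits between 1.796 and 2.45 TPM in the GST lines and between 0.370 and 0.618 in the NOCT lines, and PAX8 is at or near 0 throughout.

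Of the duct factors, PAX2 (ENSG00000075891; GRCh38 chromosome 10, 100735603 to 100829941, plus strand) differed most between the groups. GST lines 2, 8 and 9 held 108, 83 and 96 of its reads, or 2.45, 1.796 and 2.10 TPM. NOCT lines 4, 11 and 12 had 19, 29 and 24 counts, or 0.370, 0.618 and 0.546 TPM. The groups did not overlap, and each GST line was above 1 TPM while each NOCT line was below it. The edgeR estimate was 4.39-fold lower in the NOCT lines (log2 fold change -2.13 with an SE of 0.30), but its adjusted p of 0.0567 missed the threshold of 0.05. The exact two-sided permutation test on CPM (counts scaled to TMM library size) gave p = 0.1, the smallest that 3 lines against 3 allow. DESeq2 on the same counts gave a log2 fold change of -2.15 with an adjusted p of 1.15e-06, and edgeR without NOCT line 12 gave -2.22 with an adjusted p of 0.0109. The up to 100 expressed genes around PAX2 deviated by -0.07 to 0.07 in median log2 CPM in the 6 lines, and with that deviation removed the edgeR log2 fold change was -2.06 (adjusted p 0.0477).

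PAX8 (ENSG00000125618; chromosome 2, 113215997 to 113278950, minus strand), the partner of PAX2 in early kidney formation, had 3 counts in all. GST line 9 had 2 of them and NOCT line 11 had 1, and the other 4 lines had 0, where a count of 0 allows up to 3 counts in a library. No fold change is given, since both groups were at or under that limit. PAX8-AS1, the antisense gene that overlaps it, had 1 to 8 counts per line, so few reads were assigned to either gene at this depth. Reads left unassigned as ambiguous, 2.02% to 2.41% of a file, are not seen in these counts. The coverage of each strand was therefore not measured.

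LHX1 (ENSG00000273706; chromosome 17, 36936785 to 36944612, plus strand) varied most within the groups. It stood at 2.32, 7.50 and 5.85 TPM in GST lines 2, 8 and 9, and at 13.75, 12.0 and 6.08 TPM in NOCT lines 4, 11 and 12. GST line 2 was the lowest and NOCT lines 4 and 11 the highest, and NOCT line 12 lay below GST line 8, so the groups overlapped. The highest GST line was 2.98-fold above the lowest in CPM, and the log2 fold change between groups of 0.94 (SE 0.40) did not pass in edgeR (adjusted p 0.355; exact permutation p = 0.2). Without GST line 2 it was 0.60, with an adjusted p of 0.475 in edgeR. The divergent transcript LHX1-DT, which starts within 5 kb on the opposite strand, had 22, 56 and 35 counts in GST lines 2, 8 and 9 and 118, 71 and 37 in NOCT lines 4, 11 and 12. It too was lowest in GST line 2 and highest in NOCT line 4, and the ratio of LHX1 to LHX1-DT counts stayed between 3.64 and 6.18.

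EMX2 (ENSG00000170370; chromosome 10, 117542444 to 117549546, plus strand) was the least variable of the 7 tested regulators, with a 1.66-fold span of CPM over the 6 lines. It had 7.60, 7.49 and 8.71 TPM in the GST lines 2, 8 and 9 and 5.85, 7.26 and 7.36 TPM in NOCT lines 4, 11 and 12. In CPM, which is scaled differently, NOCT line 12 lay within the GST range, and the log2 fold change of -0.30 (SE 0.19) did not pass in edgeR (adjusted p 0.511). Its antisense RNA EMX2OS, from the opposite strand of the same locus, had 124 to 240 counts per line and was at -0.54 on the log2 scale (SE 0.22), which did not pass in edgeR (adjusted p 0.320).

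GATA3 (ENSG00000107485; chromosome 10, 8045378 to 8075203, plus strand) had 22.2, 16.9 and 25.03 TPM in GST lines 2, 8 and 9. NOCT lines 4, 11 and 12 had 16.3, 17.2 and 19.8 TPM. In TPM NOCT line 4 lay below the lowest GST line, and NOCT lines 11 and 12 lay within the GST range. In CPM NOCT line 11 was also just below the lowest GST line (19.92 against 19.93), and NOCT line 12 lay within the range. The log2 fold change was -0.35 (SE 0.19, edgeR adjusted p 0.452). Its antisense neighbour GATA3-AS1 had 9 to 26 counts per line, and edgeR put it at -0.50 on the log2 scale (SE 0.41, adjusted p 0.619).

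Among the mesenchyme factors, EYA1 (ENSG00000104313; chromosome 8, 71197433 to 71592025, minus strand) was higher in each NOCT line. The GST lines lay close together, at 4.27, 4.32 and 3.78 TPM in lines 2, 8 and 9. NOCT lines 4 and 11 had 10.5 and 9.88 TPM and NOCT line 12 had 5.93, so that line 12 was nearest to the GST lines without overlapping them. The estimate was 1.99-fold higher (log2 fold change 0.99, SE 0.20), which did not pass in edgeR (adjusted p 0.120; exact permutation p = 0.1, the smallest possible). DESeq2 gave 0.99 with an adjusted p of 0.000698, and edgeR without NOCT line 12 gave 1.18 with an adjusted p of 0.00294. Expressed genes around EYA1 deviated by -0.04 to 0.05 in median log2 CPM.

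SIX2 (ENSG00000170577; chromosome 2, 45005161 to 45009430, minus strand), which acts with EYA proteins, differed in the opposite direction. It had 6.30, 4.59 and 5.76 TPM in GST lines 2, 8 and 9, and 3.36, 3.50 and 2.96 TPM in NOCT lines 4, 11 and 12. Every NOCT line was below every GST line, and the NOCT lines differed among themselves by only 1.13-fold in CPM. The edgeR estimate was 1.81-fold lower (log2 fold change -0.85, SE 0.23) and did not pass (adjusted p 0.202); DESeq2 gave an adjusted p of 0.0777. In NOCT line 4 the expressed genes around SIX2 were low, at a median of -0.40, while the other 5 lines were at 0.05 to 0.14. With that deviation removed the log2 fold change was -0.70 (edgeR adjusted p 0.266).

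WT1 (ENSG00000184937; chromosome 11, 32387775 to 32435630, minus strand) had 4.00, 2.23 and 2.82 TPM in GST lines 2, 8 and 9, and 2.66, 3.27 and 3.45 TPM in NOCT lines 4, 11 and 12. The NOCT values lay inside the GST range. Its log2 fold change was -0.04 with an SE of 0.29 (edgeR adjusted p 0.966), and the sign turned with the scaling. WT1-AS, which overlaps WT1 on the opposite strand, had 1 to 7 counts per line and was not tested.

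Read together, 0 of the 7 tested regulators passed an adjusted p of 0.05 in edgeR, where 10 of 17261 genes (0.0579%) did. An unadjusted p under 0.05 was found for 4 of them (PAX2 and SIX2 lower, EYA1 and LHX1 higher), beside 13.9% of all tested genes. DESeq2 called 2, PAX2 and EYA1, against 3.41% of the genes to which it gave such a p. In CPM the lines of 3 of the 7 separated by group. EYA1 was higher in the NOCT lines, as were 10.5% of all tested genes, and PAX2 and SIX2 were lower, as were 9.54%. In TPM EMX2 separated as well, by a small margin (highest NOCT line 7.358, lowest GST line 7.495). The median log2 fold change of the 7 was -0.30, beside 0.00 over all genes. Since these regulators were proposed with results of these libraries known, these counts are a description.

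**Figure D2:**
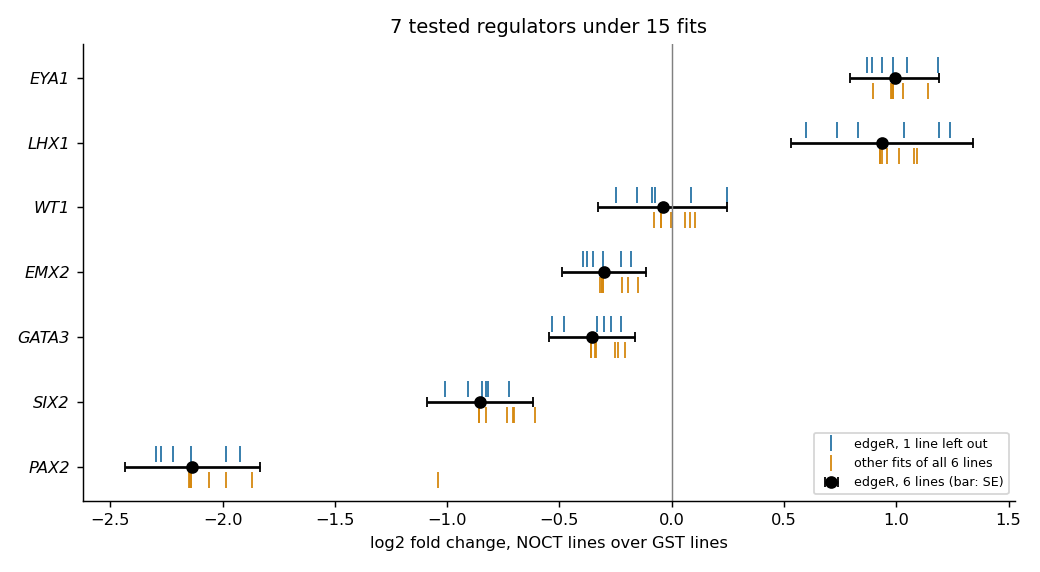
Log2 fold change of NOCT lines over GST lines for the 7 tested regulators: black points with SE bars are edgeR on 6 lines, blue ticks leave out 1 line, and orange ticks are other fits of all lines. PAX2 and SIX2 stay below 0 and EYA1 and LHX1 above 0 in each fit, WT1 lies on both sides, and the orange PAX2 tick at -1.04 is the fit on log2(TPM + 1).

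The authors' deposited table, made with DESeq2 and holding shrunken fold changes, lists 7 of the 8 regulators. In the authors' deposited table PAX2 has a log2 fold change of -1.38 (adjusted p 4.71e-07) and EYA1 of 0.82 (adjusted p 0.000551), and 2.87% of its genes with an adjusted p pass 0.05. SIX2 (-0.62, adjusted p 0.0807) and LHX1 (0.59, adjusted p 0.153) do not pass in the authors' deposited table, nor do GATA3, EMX2 and WT1. Its direction was read from the construct rows, where the NOCT construct is at 1.61 and the GST construct at -1.925.

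Regulators were then set beside paralogs, genes of the same family that can bind similar sites or partners. PAX2 and PAX8 were minor members of the PAX family in these cells. Of the 9 PAX genes, 4 reached 1 TPM in every line, and PAX3, a neural crest and muscle factor, was highest at 12.5 TPM. PAX2 made up 6.91% to 8.33% of the summed PAX TPM in the GST lines and 1.44% to 2.32% in the NOCT lines. The summed PAX level itself overlapped, at 25.99 to 29.4 TPM in GST lines and 23.5 to 29.3 in NOCT lines.

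All 4 EYA genes reached 1 TPM in every line, and EYA3 had the highest mean over the 6 lines, at 23.1 TPM. EYA1 was the lowest of the 4 in the GST lines and in NOCT line 4, but was above EYA2 in NOCT line 11 (9.88 against 7.06 TPM) and NOCT line 12 (5.93 against 4.44 TPM). EYA1's share of the family was 7.52% to 8.11% in GST lines and 10.9% to 15.1% in NOCT lines. For GATA3 the share was 20.3% to 23.3% in all 6 lines, second to GATA6 at 49.9 TPM, a regulator of endoderm and heart.

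Among 8 LHX genes LHX1 was the highest in NOCT lines 4 and 11 only, since LHX2 was above it in the 3 GST lines and in NOCT line 12 (6.42 against 6.08 TPM). The LHX1 share ran from 10.85% of the family's TPM in GST line 2 to 49.8% in NOCT line 4. LHX2, a forebrain and limb factor, was lower in each NOCT line (GST 9.74 ± 0.77 TPM, NOCT 5.93 ± 0.56, SD, n = 3), with a log2 fold change of -0.80 that did not pass in edgeR (adjusted p 0.158) and an adjusted p of 0.0103 in DESeq2. EMX2 held 74.5% to 86.9% of the TPM of the EMX pair. EMX1 was at 2.44 ± 0.13 TPM in the GST group against 1.26 ± 0.40 (SD, n = 3; log2 fold change -1.03, edgeR adjusted p 0.204, DESeq2 adjusted p 0.0497). EGR1, an immediate early gene whose zinc fingers resemble those of WT1, had 14.3 ± 4.56 and 30.9 ± 4.37 TPM (SD, n = 3; log2 fold change 1.02, edgeR adjusted p 0.182, DESeq2 adjusted p 0.00565). Over the 32 paralogs on the list, 24 were tested, 0 passed in edgeR, 4 had an unadjusted p under 0.05 (LHX8 besides these 3) and 3 passed in DESeq2. Those 4 are 16.7% of the tested paralogs, near the 13.9% of all tested genes, and the paralogs had a median log2 fold change of -0.12.

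**Figure D3:**
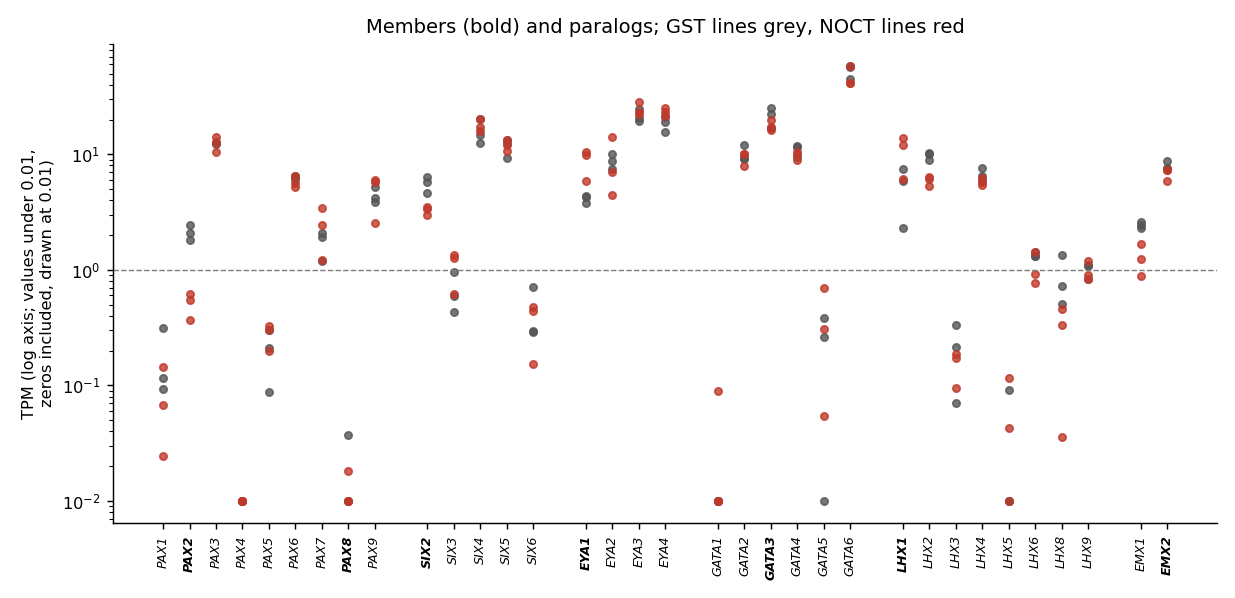
TPM in each of the 6 lines (log axis; grey GST, red NOCT; values under 0.01 drawn at 0.01) for regulators, in bold, and paralogs. GATA6 at 49.9, EYA3 at 23.1 and PAX3 at 12.5 mean TPM top families whose kidney regulator is lower; EMX2 is above EMX1 in each line, and LHX1 leads its family in NOCT lines 4 and 11 only.

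At least a 2-fold span of CPM over the lines was seen for PAX2, LHX1, SIX2 and EYA1. For each, the genes with the most similar pattern over the 6 lines were listed from 14931 genes averaging 1 CPM or more, by Pearson's r of log2(CPM + 1). With 6 points and this many genes such values come out high, so they are given as a description. MXI1 and CGNL1 (r = 0.992 each) were among the nearest to PAX2, and MXI1 was at 49.19 to 50.43 CPM in GST lines and 37.11 to 39.66 in NOCT lines. SCNM1 (0.993), GNAI2 and APEX2 (0.990 each) were nearest to LHX1. For SIX2 these were ADGRB3 (0.997), ADCY1 and CDS1 (0.993 each); ADGRB3 was 4.69 to 18.7 CPM in GST lines and 0.151 to 0.583 in NOCT lines. For EYA1 they were SERTAD4-AS1 (0.998), IER3 (0.997) and SLX4IP (0.995), and IER3 showed the same intermediate level in NOCT line 12, at 16.02 CPM between 33.5 and 34.3 in the other NOCT lines and 8.22 to 10.1 in the GST lines.

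To place the regulators among the rest of the kidney programme, 5 lists with 68 further genes were read from the same fit. Of these, 32 (47.1%) were at 1 TPM or more in every line, beside 58.2% of protein-coding genes, and 43 were tested. None passed an adjusted p of 0.05 in edgeR; 10 had an unadjusted p under 0.05 (7 higher and 3 lower), or 23.3% of the 43 beside 13.9% of all tested genes. DESeq2 called 6 of them (3.41% over all genes), and 5 of 42 pass in the authors' deposited table (2.87% over all genes). Their median log2 fold change was 0.11. The share of genes at that level differed between lists, beside the 58.2% of protein-coding genes. It was 11 of 16 (68.75%) for the nephric duct and ureteric bud and 6 of 11 (54.55%) for the mesenchyme and nephron progenitors. For the kidney stroma it was 5 of 6 (83.3%), for the early nephron 6 of 14 (42.9%) and for the differentiated kidney epithelium 4 of 21 (19.05%).

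In the duct and bud list, ETV4, an ETS factor that acts downstream of the bud's receptor RET, was at 1.92 ± 1.235 TPM in the GST group and 10.5 ± 3.58 in the NOCT group (SD, n = 3; log2 fold change 2.34, edgeR adjusted p 0.120, DESeq2 adjusted p 6.6e-06). TFAP2A, a factor of ectoderm and neural crest, had 17.6 ± 0.40 and 30.5 ± 3.33 TPM (log2 fold change 0.70, edgeR adjusted p 0.0563, DESeq2 adjusted p 1.24e-06). SOX9, which acts at the bud tips, had 14.9 ± 3.26 and 25.6 ± 5.69 TPM (log2 fold change 0.70, edgeR adjusted p 0.203, DESeq2 adjusted p 0.0389). These 3 were the only genes of the 12 tested whose lowest NOCT line was above the highest GST line, as was so for 10.5% of all tested genes. RET itself was low, at 0.164 to 0.845 TPM, and SIM1, a duct factor, stood at 7.86 to 12.1 TPM. Of the 12 tested genes of this list, 4 had an unadjusted p under 0.05, all higher in the NOCT lines, ETV5 being the other; the share over all tested genes was 13.9%. Without NOCT line 12 these 4 passed in edgeR, with an adjusted p of 0.0143 for ETV4, 0.0162 for ETV5, 0.0273 for SOX9 and 0.00835 for TFAP2A. In that fit 970 of 17882 tested genes passed.

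Of the mesenchyme and progenitor genes 9 were tested, and none had an unadjusted p under 0.05 in edgeR or passed in DESeq2. HOXA11 (18.3 to 41.8 TPM) and SALL1 (20.8 to 25.7) were the highest, and HOXD11 averaged 19.3 TPM over the 6 lines. CITED1, a marker of uncommitted progenitors, had 4.12 to 6.98 TPM. Among stromal factors, TBX18 (16.5 to 26.8 TPM) and FOXD1 (16.0 to 22.5) led that list, and 0 of 5 tested had an unadjusted p under 0.05. In the early nephron list, NOTCH2 (40.7 to 49.6 TPM), POU3F3 (18.97 to 32.9) and IRX3 (15.5 to 19.9) were highest. Of its 7 tested genes, 2 (28.6%) had an unadjusted p under 0.05 in edgeR, beside 13.9% of all tested genes. JAG1 and POU3F3 had an unadjusted p under 0.05, at log2 fold changes of 0.47 and -0.43 (edgeR adjusted p 0.246 and 0.317; JAG1 0.0139 without NOCT line 12), while FGF9, a progenitor growth factor, was at 0.49 (edgeR adjusted p 0.436).

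Markers of mature kidney epithelium, read beside the kidney label, were mostly missing. The label is of an embryonic line, so missing mature markers do not decide whether it holds. Of 21 markers, 8 had at most 3 counts in every line, among them UMOD and SLC22A6, which had 0 in all 6. The highest were EPCAM, a general epithelial adhesion protein, PODXL, a sialomucin of podocytes, and LRP2, a proximal tubule endocytic receptor. EPCAM was at 22.5 ± 13.2 TPM in the GST group and 96.4 ± 13.9 in the NOCT group (SD, n = 3; log2 fold change 1.99, edgeR adjusted p 0.123, DESeq2 adjusted p 0.0142). LRP2 had 6.78 ± 1.44 and 3.34 ± 0.96 TPM (log2 fold change -1.10, edgeR adjusted p 0.165, DESeq2 adjusted p 0.00213), and PODXL 26.6 ± 1.04 and 22.9 ± 1.52 TPM (log2 fold change -0.30, edgeR adjusted p 0.290, DESeq2 adjusted p 0.233). The podocyte slit gene NPHS1 stayed at 0.268 TPM or less. SYNPO, a podocyte cytoskeletal gene, had 0.399 ± 0.049 and 1.08 ± 0.70 TPM (log2 fold change 1.32, edgeR adjusted p 0.257). Without NOCT line 12 EPCAM, LRP2 and SYNPO passed in edgeR, with an adjusted p of 0.0299, 0.0130 and 0.0272, where 970 of 17882 tested genes passed. With all 6 lines, 4 of the 10 tested markers had an unadjusted p under 0.05 (13.9% over all genes), EPCAM and SYNPO higher and LRP2 and PODXL lower.

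**Figure D4:**
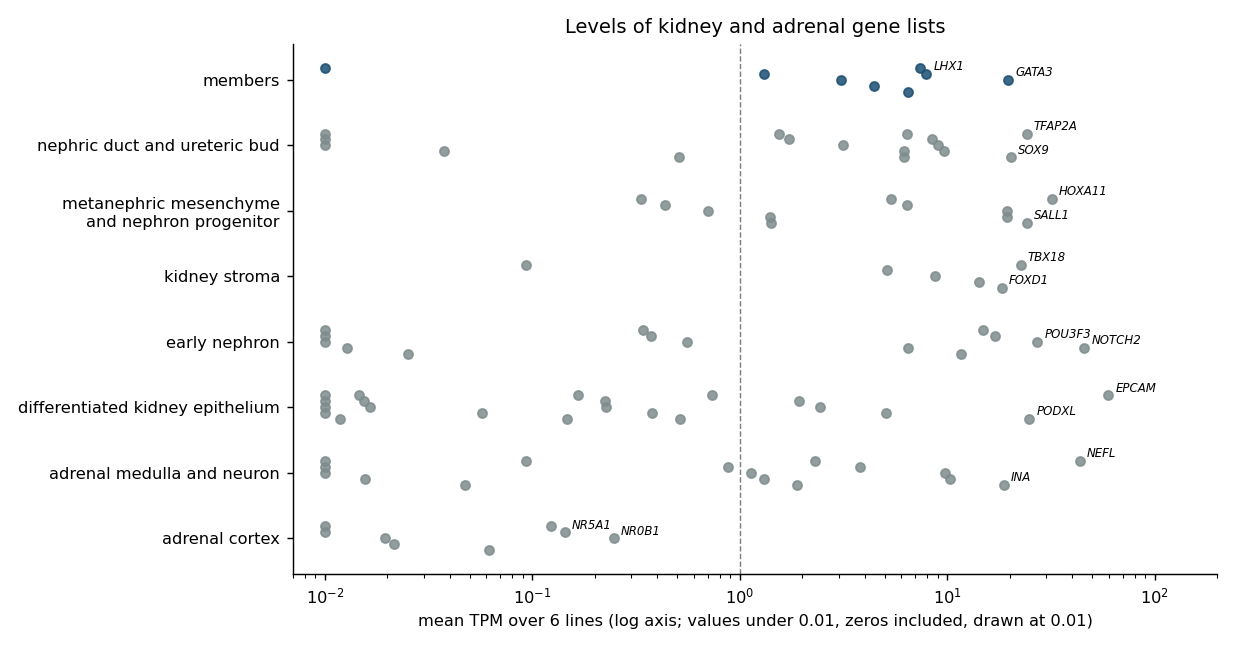
Mean TPM over the 6 lines (log axis; dashed line at 1 TPM; values under 0.01 drawn at 0.01) for the 8 regulators and the genes of 5 kidney lists and 2 adrenal lists, with the highest genes named. Only 4 of 21 mature kidney markers and none of 8 adrenal cortex markers reach 1 TPM in every line.

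Markers of adrenal and neural cells, which HEK293 could also resemble, were examined in the same way. Of 16 adrenal medulla and neuron markers, 6 were at 1 TPM or more in every line, with a summed level of 81.5 to 95.7 TPM in GST lines and 94.3 to 102 in NOCT lines. The neurofilament genes NEFL (32.5 to 57.3 TPM) and INA (9.89 to 34.4 TPM) and the factor ISL1 (6.498 to 12.8 TPM) were highest. Of the 16, 3 had 0 counts in every line, among them PHOX2A and TH, which mark chromaffin and sympathetic cells. GATA2 (7.84 to 12.1 TPM) and HAND2 (2.10 to 5.98 TPM), of the same list, were above 1 TPM in every line. Of the 8 adrenal cortex markers 0 reached 1 TPM, and their summed level was 0.613 to 0.789 TPM in GST lines and 0.361 to 0.937 in NOCT lines. NR0B1, NR5A1 and CYP17A1 were the highest of these, with at most 0.4504 TPM in any line. INSM1, an endocrine and neural factor, was lower in each NOCT line (2.78 ± 0.52 and 0.970 ± 0.242 TPM, SD, n = 3; log2 fold change -1.60, edgeR adjusted p 0.0987, DESeq2 adjusted p 0.00405). CHGB (log2 fold change 1.73, edgeR adjusted p 0.188) and INA (0.95, edgeR adjusted p 0.204) were higher in each, with DESeq2 adjusted p of 0.0252 and 0.0196. Of the 9 tested genes of the medulla and neuron list, these 3 alone separated by group or passed in DESeq2. Over all tested genes 10.5% were higher and 9.54% lower in every NOCT line, and DESeq2 called 3.41%. The part of these adrenal and neural markers in the values of the kidney regulators was not tested.

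**Figure D5:**
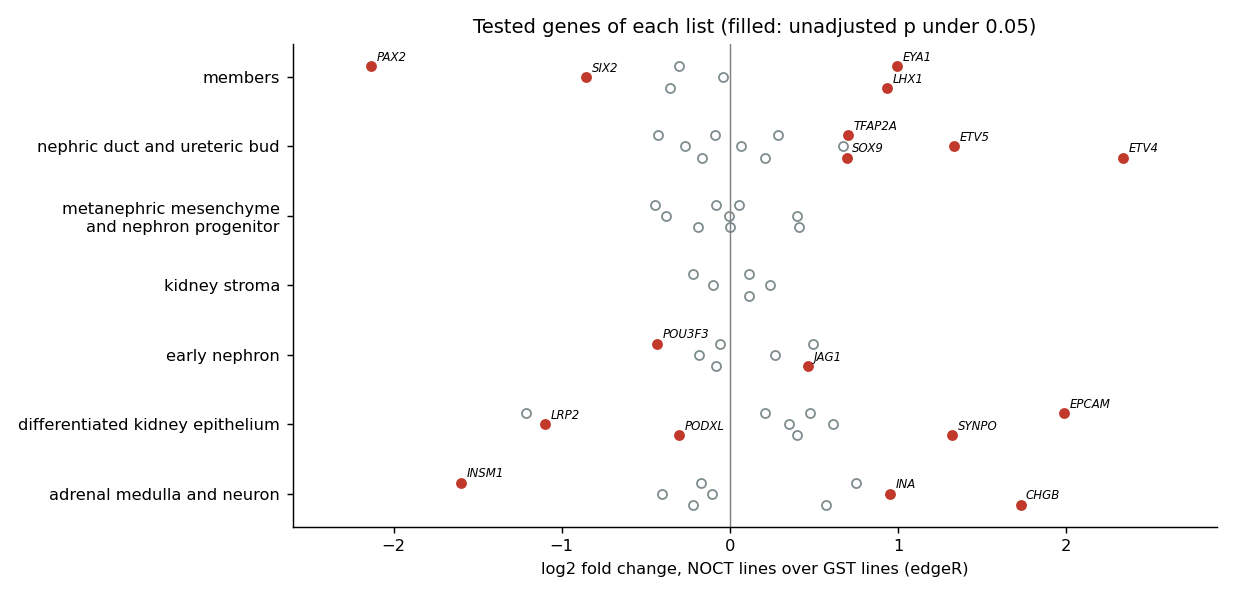
Log2 fold change of NOCT lines over GST lines in edgeR for the tested genes of each list (1 point per gene; filled and named where the unadjusted p is under 0.05). PAX2 at -2.13 is the lowest named kidney gene and ETV4 at 2.34 the highest, while the mesenchyme and stroma lists have no filled point.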

How the data were processed

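RNA of 6 clonal HEK293 lines was analysed, with 3 lines per group. The submitters' processing notes name cutadapt 1.8.1, Trimmomatic 0.33, STAR 2.5.2b, HTSeq 0.6.1p1, DESeq2 1.16.1 and GRCh38; the annotation release is not given in the sources used here. The deposited counts are unnormalised whole numbers, and rows that name no feature were left out (reads without a feature: 26.5% to 30.6% of a file; not uniquely aligned: 13.3% to 14.6%). The authors' TPM table was used for levels between genes. The authors' deposited DESeq2 table gives mean normalised counts (a signal), log2 fold changes, Wald scores and p-values; its name calls it shrunken. The counting strand setting is not given in the sources used here; the kit is strand-specific, per the labels.

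Genes kept by filterByExpr were scaled by TMM and compared with edgeR 4.0.16 (quasi-likelihood, Benjamini-Hochberg over 17261 genes, threshold 0.05) in R 4.3.3; the script was first tested on simulated data. SEs derive from the F statistic. For single values an exact permutation test (two-sided) was used. Alternatives were DESeq2 1.42.0, limma 3.58.1 (voom, log2(TPM + 1), log2(TPM + 0.1)), other scalings, no filter, an offset for up to 50 expressed neighbours on each side, and leaving out each line. Coordinates are from GENCODE 29 on GRCh38; promoters, found for 6 of the 8 regulators, are from RefSeq. No unused per-sample column was left.

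The regulators and lists were chosen with earlier results of these data known. Named were the regulators, their paralogs and overlapping genes, and per list at most 3 genes of highest mean TPM and 3 of smallest p; the 3 most similar genes were named for each regulator spanning 2-fold. ETV5, RET, UMOD, SLC22A6, NPHS1, PHOX2A, TH, HAND2, GATA2, LDB2 and DACH2 were added after their values were seen. Some genes that the rule names are not reported here.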

Additional observations from a re-analysis of the deposited data

How the results depend on the processing

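Directions held for PAX2, LHX1, EMX2, SIX2, EYA1 and GATA3 in all 14 alternatives, and WT1 had the same sign in 9. WT1 was at 0.10 with spike-in totals, 0.057 on log2(TPM + 1) and 0.080 on log2(TPM + 0.1), and between -0.25 and 0.25 when 1 line was left out (above 0 without GST line 2, at 0.25, and without NOCT line 4, at 0.09). PAX2 passed with the neighbour offset, without a filter, in DESeq2 and without NOCT line 12; its size moved most on log2(TPM + 1), to -1.04 (limma adjusted p 0.0747), and without 1 line its edgeR adjusted p ran from 0.0109 to 0.326. EYA1 passed without a filter, in DESeq2 and without NOCT line 12, and LHX1 only without a filter. Calls among the 8 regulators, 0 in edgeR, were 1 with the neighbour offset, 2 in DESeq2 and 3 without a filter, and 0 to 2 when 1 line was left out. Calls in the kidney lists, 0 in edgeR, were 1 with the neighbour offset, 1 with spike-in totals (a scaling that moves the median gene to 0.15 on the log2 scale), 6 in DESeq2 and 7 without a filter, and 0 to 8 when 1 line was left out. Calls over all genes, 10 in edgeR, were 37 with the neighbour offset, 22 with spike-in totals, 16 in limma voom, 508 in DESeq2 and 888 without a filter of 34539 genes; leaving out 1 line gave 0 (without GST line 9; 1488 at an unadjusted p under 0.05) to 970 (without NOCT line 12). The cause was not tested. The count of regulators at 1 TPM in every line, 6, was also 6 at 0.5 TPM, at 2 TPM and without any 1 line, and 7 reached 1 TPM in at least 1 line. No paired analysis was possible because the groups share no line numbers. PAX2 in NOCT lines rests on 19 to 29 counts, which limits the precision of its fold.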

Other observations

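EYA1 and SIX2 encode partners, and the ratio of their levels is given as a description. This pair was chosen after its values were seen. Since EYA1 was higher and SIX2 lower in every NOCT line, the ratio had to separate the groups. EYA1 TPM over SIX2 TPM was 0.679, 0.940 and 0.657 in GST lines 2, 8 and 9, and 3.13, 2.83 and 2.00 in NOCT lines 4, 11 and 12. In TPM SIX2 was thus the higher in every GST line and EYA1 in every NOCT line. That order depends on the exon length used for TPM, 9418 bases for EYA1 and 2205 for SIX2. In counts EYA1 was above SIX2 in every line, with 284, 301 and 261 against 98, 75 and 93 in GST lines 2, 8 and 9.

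Cofactors of these regulators ranged widely in level, from LDB2 and DACH2, which were below 1 TPM in every line, to LDB1. LDB1, which bridges LIM-homeodomain proteins such as LHX1, had 73.1 to 99.3 TPM. TLE4, a Groucho-type corepressor, had 19.3 to 30.97 TPM and PAXIP1, a PAX-interacting protein of histone methyltransferase complexes, 21.05 to 24.5 TPM. Of 11 cofactors, 9 were at 1 TPM or more in every line, beside 58.2% of protein-coding genes, and 9 were tested. None passed in edgeR or DESeq2, and 1, TLE4, had an unadjusted p under 0.05 (log2 fold change -0.40, edgeR adjusted p 0.283). That is 11.1% of the 9 tested, beside 13.9% of all tested genes. SSBP2, a cofactor of LDB1, was at -0.22 on the log2 scale (edgeR adjusted p 0.402) and DACH1, which works with EYA1 and SIX2, stood at -0.44 (edgeR adjusted p 0.418).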
